A study of Mus musculus with 12 samples.

Results

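A set of 9 genes of fatty acid use was followed through dendritic cell development with and without the histone deacetylase HDAC3. They are Angptl4, Plin2, Cpt1a, Pdk4, Acadl, Acadvl, Hadha, Ppard and Fabp5, that is 9 of the 21088 different gene identifiers in the 3 expression tables of the series, and all 9 have a row in each table. The set was named from known PPAR and fatty acid oxidation biology but selected on the same KO and control FPKM values that are described here, so their differences between genotypes are given as descriptions with no p-value; how many passed the call of the fit over all genes is counted once for each cell type and supports nothing. The RNA-seq libraries came from lymphoid-primed multipotent progenitors (LMPPs), CD115-negative common dendritic cell progenitors (CD115-CDPs) and bone marrow plasmacytoid dendritic cells (BM pDCs) that were sorted from C57BL/6 mice. HDAC3-deficient cells came from Hdac3fl/fl CreERT2 mice, in which a tamoxifen-activated Cre recombinase, expressed in all tissues, removes a floxed exon of Hdac3. Control cells came from Hdac3fl/fl mice that carry the same floxed alleles without Cre. Both genotypes were given tamoxifen for 5 days, and cells were sorted 7 days later; the age of the mice is not given in the sources used here. Each of the 6 groups has 2 libraries, 12 in all, and nothing states that the 2 came from separate mice, so any p-value below measures the spread between these libraries, which may be technical.

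Peroxisome proliferator-activated receptors (PPARs) are nuclear receptors that bind fatty acids, pair with a retinoid X receptor (RXR) and switch on genes for fatty acid uptake, storage and breakdown. Without ligand, nuclear receptors of this kind can hold corepressor complexes built on NCOR1 or SMRT, of which HDAC3 is the enzymatic subunit. Fatty acids are burned in mitochondria after the carnitine shuttle carries them in, and each turn of beta-oxidation is made by an acyl-CoA dehydrogenase, a hydratase, a hydroxyacyl-CoA dehydrogenase and a thiolase.

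PPAR and RXR pairs bind repeats of the motif AGGTCA spaced by a single base, so the sequence before the start of each gene was searched as a description of the set. RefSeq (GRCm38.p6, the build called mm10 in the submitters' processing notes) gave a window for 7 of the 9 genes; Angptl4 and Fabp5 were not in that table. The repeat AGGTCANAGGTCA, on either strand, was in 0 of the 7 windows of 250 bases before the start and in 0.0335% of all 32851 windows. The single motif AGGTCA, on either strand, was in 3 of the 7 and in 14% of all windows. The 3 matches are printed with up to 40 bases on each side, 5′ to 3′ along the gene's own strand, and the capitals mark the motif or, where it lies on the opposite strand, its reverse complement.
Plin2, chr4:86670232-86670309, minus strand, match 218 to 213 bases before the start: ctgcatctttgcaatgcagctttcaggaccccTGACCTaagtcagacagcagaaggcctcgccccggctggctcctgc
Acadvl, chr11:70015470-70015555, minus strand, match 87 to 82 bases before the start: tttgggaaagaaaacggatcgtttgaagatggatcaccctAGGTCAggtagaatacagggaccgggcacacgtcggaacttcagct
Cpt1a, chr19:3323167-3323252, plus strand, match 94 to 89 bases before the start: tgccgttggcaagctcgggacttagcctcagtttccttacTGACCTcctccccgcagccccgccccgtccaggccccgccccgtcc
The start is that of the RefSeq promoter table. For Cpt1a it lies inside the annotated gene (chr19:3322326-3385735), as does the printed stretch, and for Plin2 it lies inside the gene (chr4:86626910-86670217) while the printed stretch is outside it. The matches lie on different strands and at different distances, and the 4 other genes with a window (Pdk4, Acadl, Hadha and Ppard) had none in these 250 bases.

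Hdac3 itself was lower in every HDAC3-deficient library. Its level in FPKM, a count of sequenced fragments scaled by transcript length and library size, was 16.9 and 9.87 in HDAC3-deficient LMPPs, against 56.5 and 66.4 in control LMPPs. In CD115-CDPs it was 12.1 and 0.93 in HDAC3-deficient libraries, against 58.2 and 39.6 in control libraries. In BM pDCs it was 15.6 and 15.9 in HDAC3-deficient libraries, against 38.9 and 37.8 in control libraries. The fits called it in LMPPs and BM pDCs but not in CD115-CDPs (limma adjusted p = 0.46). The second HDAC3-deficient CD115-CDP library stood apart: it detected 11288 genes, against 13684 to 15173 in the other 3 CD115-CDP libraries, and the correlation across genes between the HDAC3-deficient pair was 0.87, against 0.98 between the control pair and at least 0.98 within every pair of LMPP or BM pDC libraries. BM pDC libraries held 18117748 to 18462220 expected counts, whereas for LMPPs and CD115-CDPs only FPKM was used and read depth is unknown. Marker levels also moved with genotype, and the lists given here are not the only ones that differed. The summed level of 7 neutrophil markers was 16.3 to 47.5 FPKM in HDAC3-deficient LMPPs, against 428 to 616 in control LMPPs, and that of 7 pDC markers was 3252 to 3630 FPKM in HDAC3-deficient BM pDCs, against 7184 to 7661 in control BM pDCs. The same 7 pDC markers summed to 191 to 275 FPKM in HDAC3-deficient CD115-CDPs, against 926 to 1269 in control CD115-CDPs. In BM pDCs 6 conventional dendritic cell markers, 5 of them at 1 FPKM or more in some library, summed to 329 to 346 FPKM in HDAC3-deficient libraries, against 222 to 231 in control libraries. The same 6 summed to 18.8 to 21.7 FPKM in HDAC3-deficient CD115-CDPs, against 61.8 to 84.4 in control CD115-CDPs. For 5 T and NK cell markers, 3 of them at 1 FPKM or more in some LMPP library, the sums were 367 to 451 FPKM in HDAC3-deficient LMPPs, against 225 to 228 in control LMPPs. In CD115-CDPs, where 2 of the 5 reached 1 FPKM in some library, the sums were 282 to 402 in HDAC3-deficient libraries, against 48.8 to 66.2 in control libraries. In HDAC3-deficient LMPPs 4 endothelial markers, 2 of them at 1 FPKM or more in some LMPP library, summed to 2.56 to 2.59 FPKM, against 19.6 to 20.7 in control LMPPs. One control LMPP library carried 9276 FPKM of 7 erythroid markers, against 188 in the other control and 103 to 275 in HDAC3-deficient LMPPs. Their part in the results that follow was not tested, and in sorted bulk cells fewer cells of a type and less RNA per cell cannot be told apart. Adipocyte and stromal markers summed to at most 5.41 FPKM in any library, with 3 of 8 not listed in each table and leptin at 0 or not listed in all but 1 control CD115-CDP library.

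The 9 genes had very different levels across the cell types. The tables were normalized separately, and BM pDCs were lysed in Trizol but the progenitors in a buffer for small cell numbers. Levels are therefore set side by side here with no test, and cell type cannot be told apart from handling. Ppard, the receptor of the set, averaged 18.8 FPKM in control BM pDCs but 1.11 in control CD115-CDPs and 0.30 in control LMPPs. Angptl4 ran the other way, with 20.3 and 17.9 FPKM in control LMPPs, 8.10 and 11.6 in control CD115-CDPs, and 0.23 and 0.15 in control BM pDCs. Fabp5 was at 50.6 to 61.3 FPKM in control LMPPs and 40.2 to 56.1 in control CD115-CDPs, 2 ranges that overlap, and at 13.1 to 13.4 in control BM pDCs. Acadl was the most abundant of the 9 in control cells of every type, at 84.6 to 109 FPKM in the progenitors and 55.9 to 58.7 in BM pDCs. Pdk4 stayed at or under 0.28 FPKM in all 12 libraries.

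**Figure D1:**
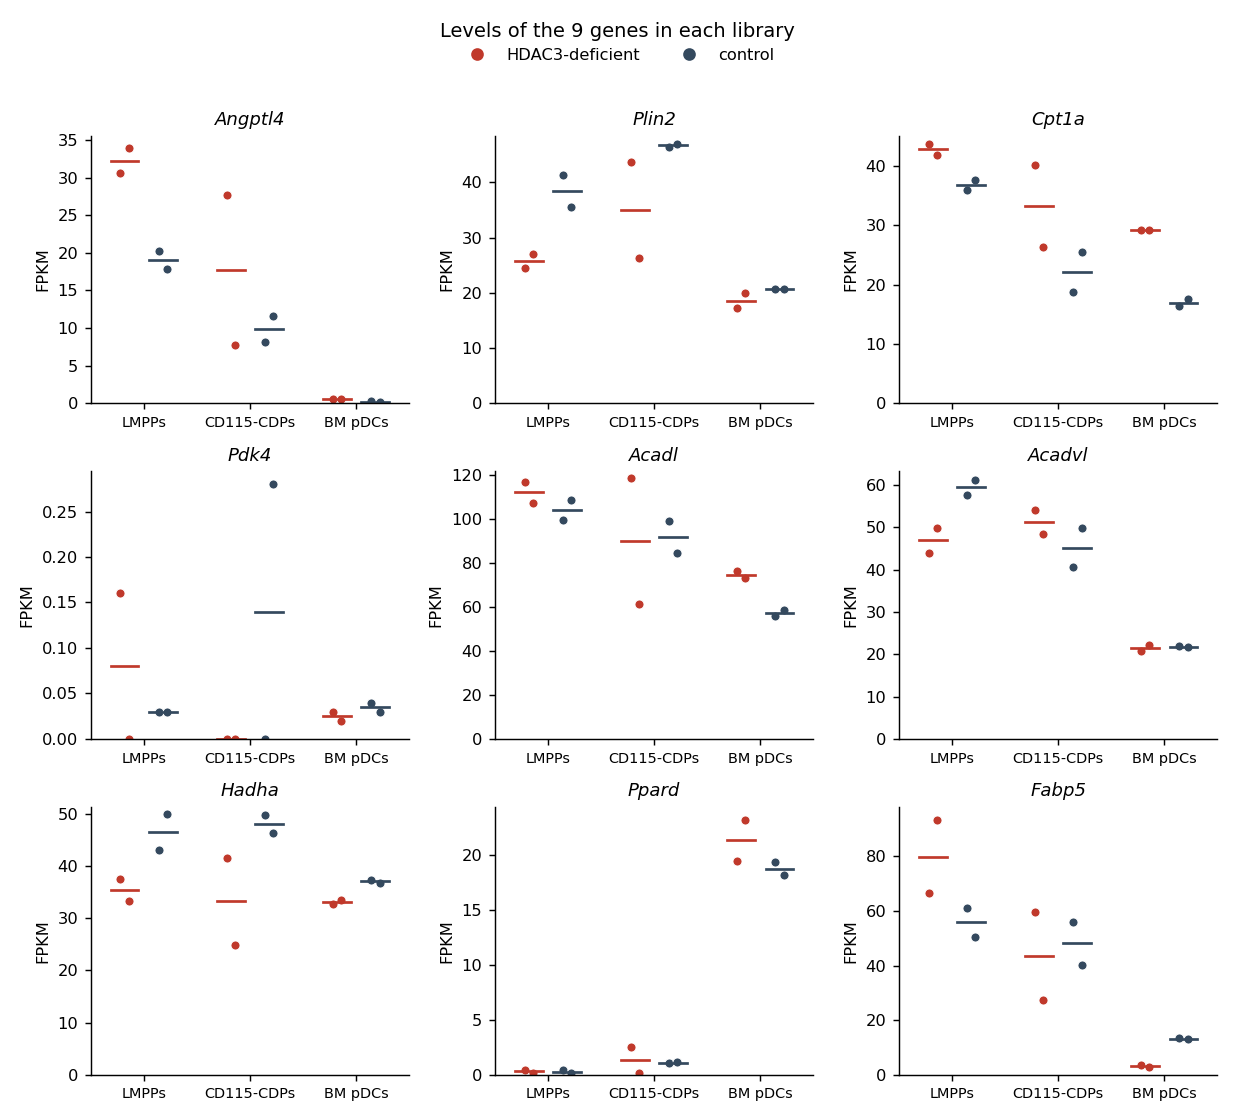
FPKM (linear axis from 0, different for each gene) of the 9 genes in LMPPs, CD115-CDPs and BM pDCs. Red points are the 2 HDAC3-deficient libraries and dark points the 2 control libraries, with a line at each mean; Ppard is high only in BM pDCs, Angptl4 is near 0 there, and Fabp5 averages 3.36 FPKM in HDAC3-deficient BM pDCs, against 13.3 in control BM pDCs.

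Among the targets, Angptl4, a secreted inhibitor of lipoprotein lipase and a standard PPAR target, was higher in HDAC3-deficient LMPPs and BM pDCs. In LMPPs it was at 30.6 and 33.9 FPKM in HDAC3-deficient libraries, against 20.3 and 17.9 in control libraries. Both HDAC3-deficient libraries were above both controls, a log2 difference of 0.74 (SE 0.18, on the log2(FPKM + 0.5) scale). In BM pDCs the same order held at a far lower level, with 20 and 18 expected counts (estimated reads) in HDAC3-deficient libraries, against 8 and 5 in control libraries (0.57 and 0.51 FPKM against 0.23 and 0.15). The log2 difference of those counts was 1.65 (SE 0.45). In CD115-CDPs Angptl4 was at 27.7 and 7.79 FPKM in HDAC3-deficient libraries, against 8.10 and 11.6 in control libraries. One HDAC3-deficient library was above both controls and the other below both, and the log2 difference of 0.58 (SE 0.64) became -0.30 without the first and 1.47 without the second.

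Plin2 encodes the coat protein of lipid droplets. It was at 24.6 and 27.1 FPKM in HDAC3-deficient LMPPs, against 41.4 and 35.6 in control LMPPs, so both HDAC3-deficient libraries were lower and the log2 difference was -0.56 (SE 0.17). In CD115-CDPs it was at 43.8 and 26.4 FPKM in HDAC3-deficient libraries, against 46.5 and 47.0 in control libraries, again with no overlap; the log2 difference of -0.45 shrank to -0.09 without the second HDAC3-deficient library. In BM pDCs it was at 17.2 and 20.0 FPKM in HDAC3-deficient libraries, against 20.7 and 20.6 in control libraries. Both HDAC3-deficient libraries were thus below both controls in FPKM, as for 48.9% of all genes tested there. The log2 difference of Plin2 in the counts was -0.03 (SE 0.11). This target therefore differed from Angptl4 in its direction in LMPPs.

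Fabp5, an intracellular carrier that can deliver fatty acids to PPAR-delta, showed the largest log2 difference of the fitted genes of the set, in BM pDCs. It was at 3.77 and 2.96 FPKM in HDAC3-deficient BM pDCs, against 13.4 and 13.1 in control BM pDCs (64 and 51 reads against 230 and 221). The HDAC3-deficient mean was 0.25 of the control mean and the log2 difference was -1.85 (SE 0.16). In LMPPs the order was turned, with 66.4 and 93.5 FPKM in HDAC3-deficient libraries, against 61.3 and 50.6 in control libraries. Both HDAC3-deficient libraries were above both controls there, but the closest pair differed by little and the log2 difference of 0.50 (SE 0.19) was 0.25 without the second HDAC3-deficient library. In CD115-CDPs the groups overlapped, at 59.8 and 27.6 FPKM in HDAC3-deficient libraries, against 56.1 and 40.2 in control libraries. Fabp5 has near-identical pseudogene copies in the mouse genome, and how reads were shared with them is not given in the sources used here.

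Cpt1a encodes carnitine palmitoyltransferase 1A, the outer membrane enzyme that commits long-chain fatty acids to mitochondrial import, and it was the gene of the set that was higher in the HDAC3-deficient libraries of all 3 cell types. In BM pDCs it was at 29.3 FPKM in each HDAC3-deficient library, against 16.5 and 17.5 in the control libraries. The HDAC3-deficient level was 1.72 times the control level there, and the log2 difference in counts was 0.92 (SE 0.09). In CD115-CDPs Cpt1a was at 40.2 and 26.3 FPKM in HDAC3-deficient libraries, against 18.8 and 25.5 in control libraries. The second HDAC3-deficient library was just above the higher control, and the log2 difference was 0.56 (SE 0.36). In LMPPs it was at 43.8 and 41.9 FPKM in HDAC3-deficient libraries, against 36.0 and 37.7 in control libraries, which did not overlap but gave a log2 difference of only 0.21 (SE 0.16).

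The 2 acyl-CoA dehydrogenases of the set, which start beta-oxidation on long and very long chains, did not move alike. Acadl, the long-chain enzyme, was at 76.2 and 73.1 FPKM in HDAC3-deficient BM pDCs, against 55.9 and 58.7 in control BM pDCs, a log2 difference of 0.52 (SE 0.08) in counts with no overlap. In LMPPs it was at 117 and 107 FPKM in HDAC3-deficient libraries, against 99.3 and 109 in control libraries, and the groups overlapped. In CD115-CDPs they overlapped too, at 118 and 61.1 FPKM in HDAC3-deficient libraries, against 99.0 and 84.6 in control libraries. Acadvl, the very-long-chain enzyme, differed without overlap only in LMPPs, at 43.9 and 49.9 FPKM in HDAC3-deficient libraries, against 57.7 and 61.2 in control libraries (log2 difference -0.34, SE 0.16). Its log2 difference was 0.18 (SE 0.27) in CD115-CDPs and 0.11 (SE 0.09) in BM pDCs, and the BM pDC value was -0.02 when FPKM was fitted instead of counts.

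Hadha is the alpha subunit of the mitochondrial trifunctional protein that carries out the later steps on long chains. Like Plin2, Hadha was lower on the FPKM scale in both HDAC3-deficient libraries of every cell type. It was at 37.6 and 33.4 FPKM in HDAC3-deficient LMPPs, against 43.2 and 50.0 in control LMPPs (log2 difference -0.39, SE 0.17). In CD115-CDPs it was at 41.5 and 25.0 FPKM in HDAC3-deficient libraries, against 49.8 and 46.3 in control libraries (log2 difference -0.57, SE 0.34). The BM pDC values were close, at 32.7 and 33.6 FPKM in HDAC3-deficient libraries, against 37.4 and 36.7 in control libraries, and the log2 difference in counts scaled by TMM was -0.03 (SE 0.09), with its sign turned (0.04) without the first HDAC3-deficient library.

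Ppard encodes PPAR-delta, the PPAR of the set, and in BM pDCs it was at 19.44 and 23.2 FPKM in HDAC3-deficient libraries, against 19.35 and 18.2 in control libraries. The lowest HDAC3-deficient value exceeded the highest control value by less than the spread of either pair, and the log2 difference in counts was 0.32 (SE 0.12), or 0.16 without the second HDAC3-deficient library. In CD115-CDPs it was at 2.49 and 0.19 FPKM in HDAC3-deficient libraries, against 1.07 and 1.15 in control libraries. In LMPPs it was at most 0.46 FPKM in any library and was not fitted. The other PPARs were near the limit of detection. Ppara had no row in LMPPs and at most 0.09 FPKM elsewhere, and Pparg was at most 0.51 FPKM apart from 1.31 in the second HDAC3-deficient CD115-CDP library. Pdk4, a kinase that shuts off pyruvate dehydrogenase and a strong PPAR target in other tissues, was at 0.16 and 0 FPKM in HDAC3-deficient LMPPs, against 0.03 and 0.03 in control LMPPs. Its values in BM pDCs rested on at most 2.55 expected counts a library, so no difference was detectable at this depth.

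**Figure D2:**
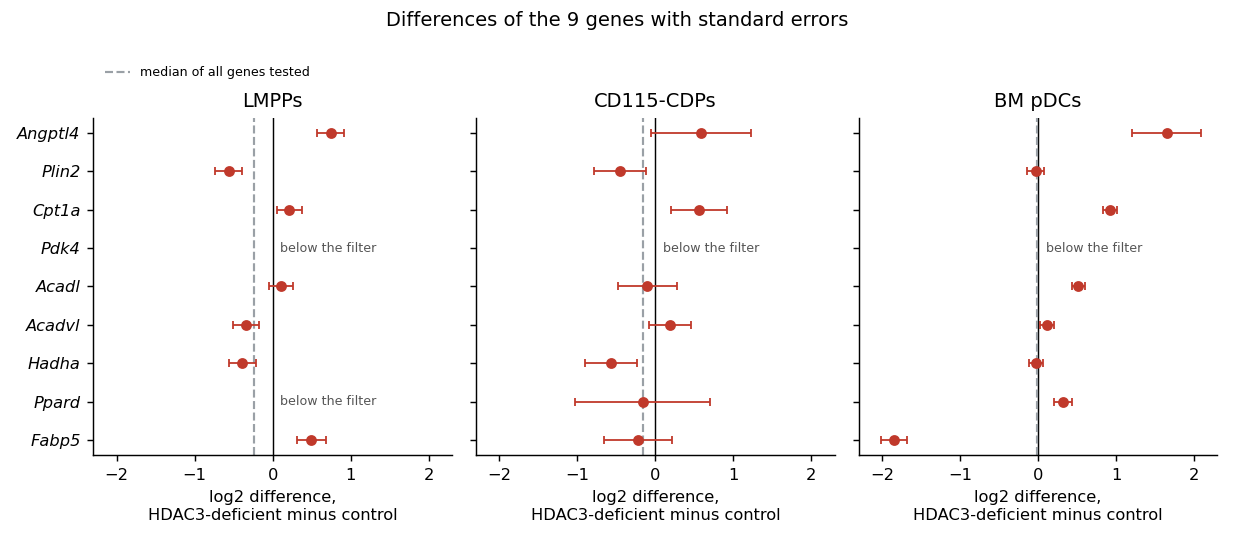
Log2 difference (HDAC3-deficient minus control, points) with its standard error (bars) for the fitted genes of the set in LMPPs, CD115-CDPs and BM pDCs, with Pdk4 (and Ppard in LMPPs) marked as below the filter; the dashed line is the median of all genes tested. Bars are widest in CD115-CDPs, and in BM pDCs Angptl4 (1.65) and Fabp5 (-1.85) lie farthest from 0 on either side.

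Counted against all genes tested, the set was spread over both directions. A gene entered the LMPP and CD115-CDP fits with at least 1 FPKM in at least 2 libraries, which left out Pdk4 in both and Ppard in LMPPs, and the BM pDC fit by edgeR's filter on counts, which left out Pdk4. A gene was called at a Benjamini-Hochberg adjusted p under 0.05 over all genes tested. In LMPPs 1 of 7 genes was called higher (Angptl4), where 4.31% of all 11146 genes were, and 1 was called lower (Plin2), where 18.8% were. In CD115-CDPs 0 of 8 were called in either direction, as for all 10832 genes (0% higher and 0% lower; 332 genes were higher and 644 lower at an unadjusted p under 0.05). In BM pDCs 3 of 8 were called higher (Angptl4, Cpt1a and Acadl), where 21.6% of all 12716 genes were, and 1 lower (Fabp5), where 22.5% were. Without each of the 4 libraries in turn, the BM pDC calls of Cpt1a and Fabp5 were the calls of the set that were always kept. Both HDAC3-deficient libraries were above both controls for 3 of 7 genes in LMPPs (17.6% of all genes), 1 of 8 in CD115-CDPs (15.2%) and 4 of 8 in BM pDCs (27.2%). They were below both controls for 3 of 7 genes in LMPPs (48.2%), 2 of 8 in CD115-CDPs (28.4%) and 3 of 8 in BM pDCs (48.9%). Since these contrasts chose the genes, nothing is read from the counts. The median log2 difference of all genes was -0.23 in LMPPs, -0.16 in CD115-CDPs and -0.01 in BM pDCs, against 0.11, -0.13 and 0.22 for the genes of the set that were fitted. When LMPP libraries were rescaled by median ratios the median of all genes became 0.03, every fitted gene of the set kept its sign, and Plin2 lost its call. With this rescaling 2 of the 7 genes were called higher and 0 lower, where 952 and 918 of all 11146 genes were.

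The wider pathway was read from 8 lists of 96 further genes, none of them in the set. In LMPPs 64 were tested, 1 rose and 15 fell in HDAC3-deficient cells, with a median log2 difference of -0.37 against -0.23 for all genes. That split depended on scaling, since 3 rose and 6 fell with median ratio scaling (952 and 918 of all genes, against 480 and 2096 without it) and 2 rose and 6 fell with quantile normalization (777 and 874 of all genes). In BM pDCs 77 were tested, 11 rose and 24 fell, with a median of -0.12 against -0.01 for all genes, and 7 rose and 29 fell when FPKM was fitted in place of counts (1881 and 3696 of all genes, against 2753 and 2858). In CD115-CDPs 0 of the 66 tested were called by limma (median -0.03), and 2 were higher and 0 lower at an unadjusted p under 0.05; without the second HDAC3-deficient library 4 rose and 4 fell. The genes called in both LMPPs and BM pDCs were Hilpda, which rose, and Abcd3, Acsl4, Cat, Crot and Decr1, which fell. These 5 are 33.3% of the related genes that fell in LMPPs, where 22.5% of all genes tested in BM pDCs fell there. They are 20.8% of those that fell in BM pDCs, where 18.8% of all genes tested in LMPPs fell there. The overlap over all genes was not counted, so nothing is read from these shares. In the same HDAC3-deficient libraries neutrophil markers were lower in LMPPs, and in BM pDCs pDC markers were lower and the sum of conventional dendritic cell markers was higher (Clec9a 4.14 and Cd209a 0.34 times the control mean), by the sums given above, and their part was not tested.

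**Figure D3:**
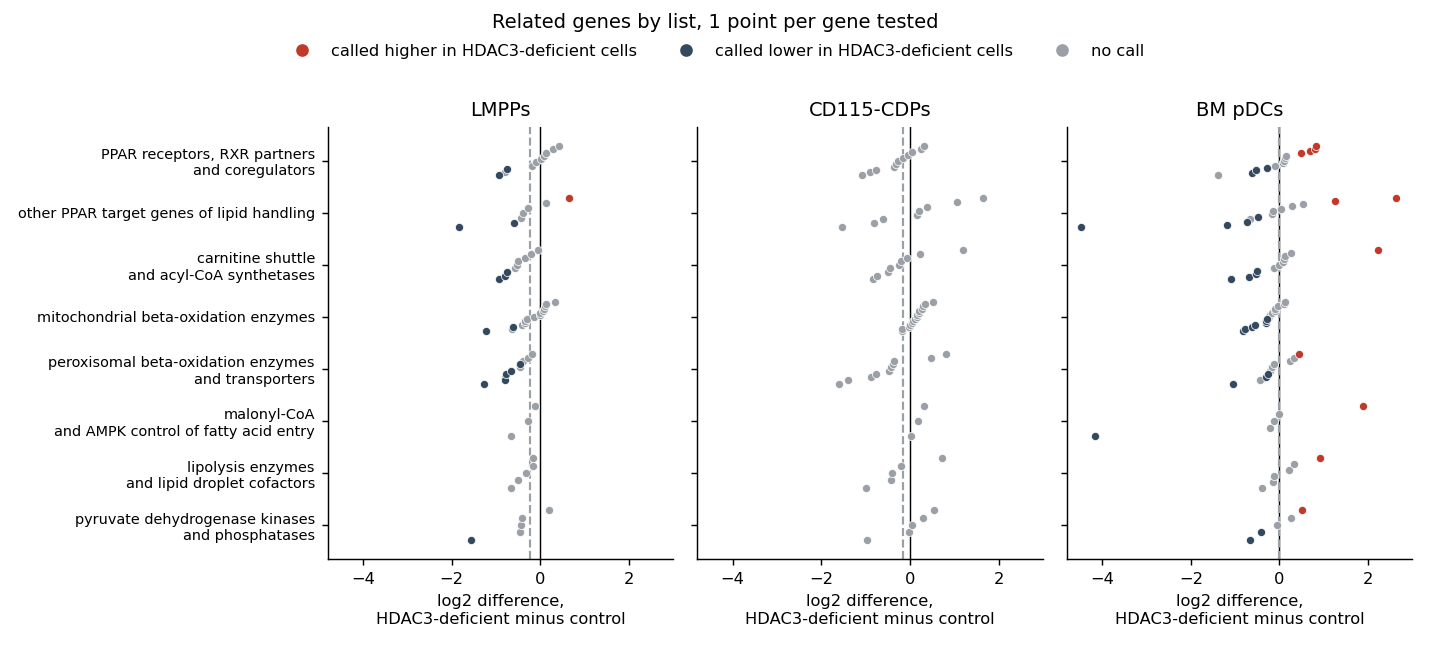
Log2 difference (HDAC3-deficient minus control) of each tested gene of 8 related lists in LMPPs, CD115-CDPs and BM pDCs, red where called higher, dark blue where called lower and grey where not called; the dashed line is the median of all genes tested. The mitochondrial beta-oxidation list has 7 of 15 genes called lower and 0 called higher in BM pDCs (22.5% and 21.6% of all genes tested). The peroxisomal list has 5 of 10 called lower in LMPPs (18.8% of all genes tested).

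Of the mitochondrial beta-oxidation enzymes tested in BM pDCs, 7 of 15 fell and 0 rose by edgeR (8 and 0 at an unadjusted p under 0.05, median -0.25). Over all genes tested there, 22.5% fell and 21.6% rose. Of the 7 falls, only that of Acads was kept without each of the 4 libraries in turn. Acadl of the set, by contrast, was higher. Acads, the short-chain dehydrogenase, fell to 11.8 and 10.4 FPKM in HDAC3-deficient BM pDCs, against 18.7 and 18.8 in control BM pDCs (log2 difference -0.62, SE 0.10, edgeR adjusted p = 0.0022). Decr1, which prepares unsaturated chains, fell to 3.61 and 2.60 FPKM in HDAC3-deficient BM pDCs, against 5.66 and 6.03 in control BM pDCs (log2 difference -0.78, adjusted p = 0.0061). Hadh, a short-chain hydroxyacyl-CoA dehydrogenase, fell there too (log2 difference -0.56, adjusted p = 0.0044), and the Decr1 and Hadh calls were lost without the second control library. In LMPPs 2 of the 15 fell, Decr1 (log2 difference -0.62, limma adjusted p = 0.025) and Acad10 (-1.22, adjusted p = 0.0075). Their LMPP calls were lost under quantile normalization and without the second control library. In CD115-CDPs the list had a median of 0.15, with Acads at 69.3 and 51.9 FPKM in HDAC3-deficient libraries, against 48.1 and 46.3 in control libraries.

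Among enzymes that activate and shuttle fatty acids, 3 of 9 fell in LMPPs and 4 of 11 fell and 1 rose in BM pDCs. Acsl1, an acyl-CoA synthetase and PPAR target, fell to 19.7 and 16.4 FPKM in HDAC3-deficient BM pDCs, against 41.7 and 42.0 in control BM pDCs (log2 difference -1.09, SE 0.10, adjusted p = 0.00023). Its relative Acsl3, which acts at lipid droplets, did the reverse at a lower level, with 2.32 and 2.05 FPKM in HDAC3-deficient BM pDCs, against 0.52 and 0.50 in control BM pDCs (log2 difference 2.23, SE 0.19, adjusted p = 0.00017). In LMPPs Acsl3 fell to 5.91 and 5.09 FPKM in HDAC3-deficient libraries, against 9.32 and 10.5 in control libraries (log2 difference -0.79, adjusted p = 0.024, lost under both rescalings and without either control library). Crot, the peroxisomal carnitine octanoyltransferase, fell in LMPPs (log2 difference -0.93, adjusted p = 0.0066) and in BM pDCs (-0.69, adjusted p = 0.0052).

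Peroxisomal enzymes fell in LMPPs for 5 of 10 tested, the largest share of any of the 8 lists there. Of all genes tested in LMPPs, 18.8% fell. Abcd3, a peroxisomal membrane transporter, fell in LMPPs (log2 difference -0.79, adjusted p = 0.013, lost under both rescalings and without either control library) and more in BM pDCs, at 2.90 and 2.29 FPKM in HDAC3-deficient libraries, against 6.05 and 5.67 in control libraries (log2 difference -1.04, adjusted p = 0.00095). Acox3 fell in LMPPs (-0.65, adjusted p = 0.049) and rose in BM pDCs (0.43, adjusted p = 0.033), but both calls were lost without either control library. Acaa1a, the peroxisomal thiolase, fell in BM pDCs (-0.31, adjusted p = 0.023), a call lost without either control library. In CD115-CDPs Abcd3 was at 8.61 and 5.65 FPKM in HDAC3-deficient libraries, against 9.70 and 8.76 in control libraries.

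**Figure D4:**
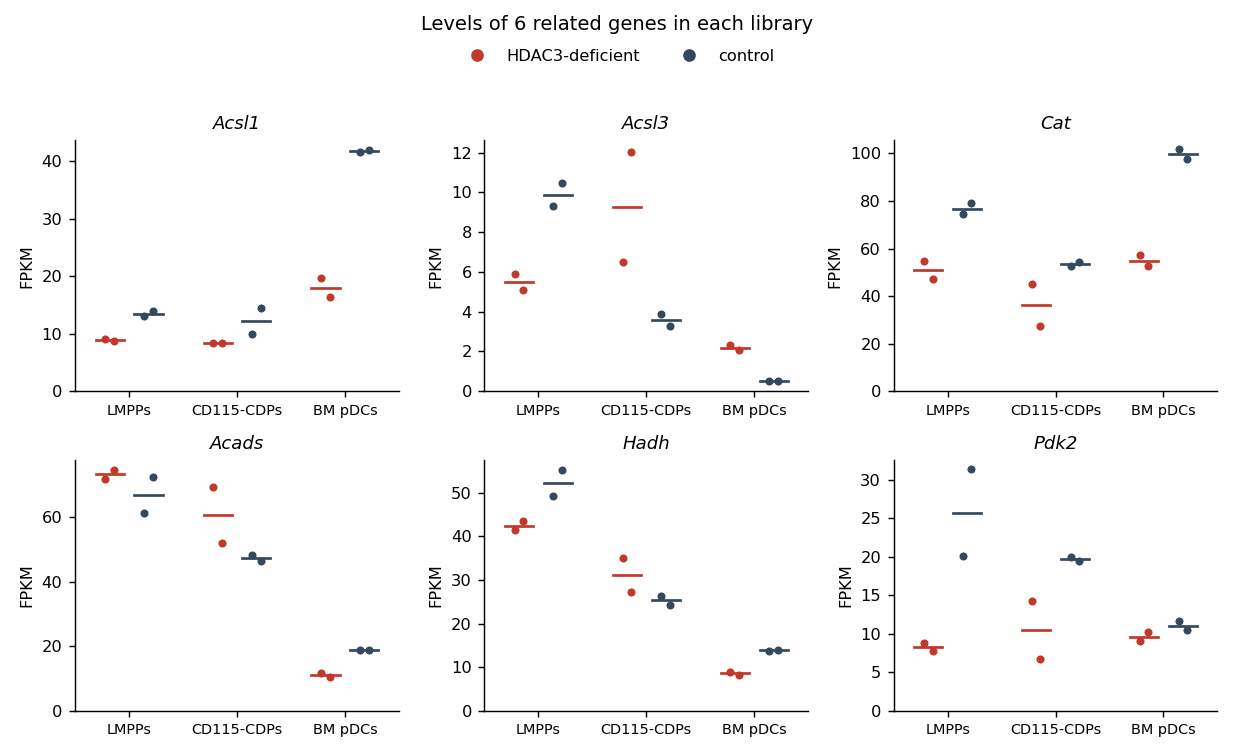
FPKM (linear axis from 0, different for each gene) of 6 related genes in LMPPs, CD115-CDPs and BM pDCs, with 2 HDAC3-deficient libraries (red, left) and 2 control libraries (dark, right) and a line at each mean. Acsl1 averages 18.03 FPKM in HDAC3-deficient BM pDCs, against 41.9 in control BM pDCs, while Acsl3 averages 2.19 against 0.51.

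Other PPAR targets did not share a direction in BM pDCs, where 2 rose and 4 fell of 12 tested. Cat, the peroxide-degrading catalase of peroxisomes, fell in BM pDCs (log2 difference -0.73, adjusted p = 0.00067) and in LMPPs (-0.59, adjusted p = 0.018, lost with median ratio scaling and without 3 of the 4 libraries). Hilpda, a lipid droplet protein that inhibits lipolysis, rose in LMPPs to 65.4 and 58.8 FPKM in HDAC3-deficient libraries, against 44.8 and 34.9 in control libraries (log2 difference 0.64, adjusted p = 0.018). In BM pDCs Hilpda rose too, at 4.41 and 5.61 FPKM against 2.82 and 1.77 in control libraries (log2 difference 1.26, adjusted p = 0.013); both calls were lost without the second control library. Acot1, an acyl-CoA thioesterase, rose in BM pDCs (log2 difference 2.63, edgeR adjusted p = 0.0050) on at most 36.6 expected counts a library. This call was lost without the second control library, and Acot1 reads may be shared with the near-identical Acot2. The more abundant Acot2 was called lower in the same cells, at 3.29 and 3.76 FPKM in HDAC3-deficient libraries, against 5.45 and 5.47 in control libraries. Its log2 difference was -0.49 (edgeR adjusted p = 0.027). In LMPPs Vnn1, a pantetheinase, fell (log2 difference -1.83, adjusted p = 0.0025), with a control level of at most 2.27 FPKM.

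The receptors' partners were split as well. In BM pDCs the RXR gene Rxrb rose to 57.7 and 65.8 FPKM in HDAC3-deficient libraries, against 38.9 and 36.1 in control libraries (log2 difference 0.83, SE 0.11, adjusted p = 0.0010), and the coactivator Ncoa3 rose as well (0.69, adjusted p = 0.0013). Rxra fell (log2 difference -0.63, adjusted p = 0.0086), as did the coactivator Ppargc1b (-0.52, adjusted p = 0.018), each call lost without the first control library. Of 13 tested in this list, 4 rose and 3 fell. In LMPPs 2 of 10 fell, the coregulators Ncoa2 (-0.92, adjusted p = 0.010) and Nrip1 (-0.76, adjusted p = 0.046), and both calls were lost under quantile normalization. Nrip1 rose in BM pDCs (0.48, adjusted p = 0.010), a call lost without the second control library.

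Genes that set the entry and release of fatty acids, and the choice between pyruvate and fat, were called in both directions in BM pDCs, with 1 rise and 1 fall among 5 malonyl-CoA and AMPK genes, 1 rise among 6 lipolysis genes, and 1 rise and 2 falls among 5 pyruvate dehydrogenase kinases and phosphatases. Lipe, the hormone-sensitive lipase, rose in BM pDCs to 26.5 and 30.2 FPKM in HDAC3-deficient libraries, against 17.0 and 16.0 in control libraries (log2 difference 0.92, adjusted p = 0.00075). Acacb, which makes the CPT1 inhibitor malonyl-CoA, had 13 and 18 reads in HDAC3-deficient BM pDCs, against 4 and 5 in control BM pDCs (adjusted p = 0.020, lost without either control library). Prkaa2, a catalytic subunit of AMP-activated kinase, had 1 and 5 reads, against 69 and 52 in control BM pDCs (edgeR adjusted p = 0.0010). Both genes were at most 0.45 FPKM in any BM pDC library, and their more abundant relatives Acaca and Prkaa1 were not called there. Acaca was at 6.46 and 5.57 FPKM in HDAC3-deficient BM pDCs, against 8.02 and 7.34 in control BM pDCs (log2 difference -0.22). Prkaa1 was at 10.63 and 8.98 FPKM, against 11.06 and 11.05 (log2 difference -0.002). Among relatives of Pdk4, Pdk2 fell in LMPPs to 8.78 and 7.72 FPKM in HDAC3-deficient libraries, against 20.1 and 31.4 in control libraries (log2 difference -1.55, SE 0.23, adjusted p = 0.00040). In BM pDCs Pdk1 rose (log2 difference 0.50, adjusted p = 0.0062, lost without the second control library), Pdk3 fell (-0.67, adjusted p = 0.0013), and the phosphatase gene Pdp1 fell (-0.43, adjusted p = 0.048, lost under most alternatives).

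Across the 12 libraries, after centring on each cell type's mean, the genes most like the 6 eligible genes of the set were found among 9775 genes tested in all cell types. These Pearson r values on log2(FPKM + 0.5) are descriptions, because libraries of one genotype share their deviations. Hadha was most like Slc7a7 (0.99) and Tbc1d5 (0.99), and Acadl most like Map2k3 (0.98) and Il4ra (0.98). Plin2 was most like Camk1 (0.97) and Shisa8 (0.97), Fabp5 most like Mcts1 (0.97) and Aamp (0.96), Cpt1a most like Il12rb1 (0.95) and Egfl7 (0.94), and Acadvl most like Acad10 (0.93) and Serpine2 (0.90). None of these belonged to the set, and Acad10 is a related gene of the mitochondrial list. Without the second HDAC3-deficient CD115-CDP library the same 12 values lay between 0.90 and 0.98 over 11 libraries.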

How the data were processed

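Total RNA of sorted LMPPs, CD115-CDPs and BM pDCs was sequenced; LMPPs and CD115-CDPs were lysed in a buffer for small cell numbers and BM pDCs in Trizol. The authors deposited FPKM values per gene for each cell type in separate tables and, for BM pDCs, expected counts. Bowtie2, RSEM and the build mm10 appear in the submitters' processing notes, with no versions in the sources used here. Library preparation used Illumina or BGI protocols, and which library used which is not given.

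Groups were taken from the sample labels. LMPP and CD115-CDP FPKM were fitted on log2(FPKM + 0.5) with limma (version 3.58.1) and a trend, for genes that reached 1 FPKM in 2 or more libraries. BM pDC expected counts were rounded and fitted with edgeR's quasi-likelihood test (version 4.0.16), TMM scaling and filterByExpr. Tests were two-sided, adjusted by Benjamini-Hochberg over all genes tested and called under 0.05. SEs of edgeR fits were derived from the F statistic. Fold changes on the log2(FPKM + 0.5) scale understate those of low genes. CD115-CDP rows were named by gene ID through the BM pDC table and RefSeq. Scripts were tested on simulated data.

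The members and lists were chosen with earlier results of these data known. Named were all 9 genes, Hdac3, Ppara and Pparg, and from each list up to 2 called genes per direction and cell type with the smallest p and no overlap between genotypes; 2 of the genes so named are not reported here. Alternatives were pseudocounts of 0.1 and 1, filters of none or 5 FPKM, median ratio and quantile scaling, limma without trend, RLE factors, DESeq2 (version 1.42.0), FPKM in place of counts, a replicate block and leaving out each library.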

Additional observations from a re-analysis of the deposited data

Results flagged for a closer look

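Fabp5 was the gene of the set whose HDAC3-deficient libraries lay on opposite sides of their controls in different cell types: its log2 difference was 0.50 in LMPPs and -1.85 in BM pDCs, which are 2.35 apart. In this and the following pairs both HDAC3-deficient libraries were above both controls in one cell type and below both in the other. The difference between cell types was not tested, since the tables were normalized separately. Every gap to BM pDCs also sets a limma difference on log2(FPKM + 0.5) beside an edgeR difference of counts, so its size is only rough.

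Among the related genes, Acsl3 was lower in HDAC3-deficient LMPPs and higher in both other cell types, with gaps of -1.995 to CD115-CDPs and -3.02 to BM pDCs on the log2 scale. Nrip1 was higher in HDAC3-deficient BM pDCs alone, with gaps of -1.23 for LMPPs minus BM pDCs and -0.74 for CD115-CDPs minus BM pDCs. Lipe had the same order, with gaps of -1.42 and -1.91, and so did Acox3, with gaps of -1.08 and -2.04. In CD115-CDPs Lipe was at 15.8 and 4.68 FPKM in HDAC3-deficient libraries, against 18.2 and 17.4 in control libraries (SE 0.60). Acox3 was at 24.2 and 4.58 FPKM there, against 38.7 and 29.3 (SE 0.76). Much of both CD115-CDP differences came from the second HDAC3-deficient library, which stood apart, and neither was called. Acads was higher in HDAC3-deficient CD115-CDPs and lower in BM pDCs, a gap of 0.96. Hadh was higher in HDAC3-deficient CD115-CDPs alone, with gaps of -0.58 for LMPPs minus CD115-CDPs and 0.84 for CD115-CDPs minus BM pDCs. Pdk1 was lower in HDAC3-deficient LMPPs alone, with gaps of -0.99 to CD115-CDPs and -0.95 to BM pDCs. For Pdk3 the gaps were -0.45 for LMPPs minus CD115-CDPs and 0.71 for CD115-CDPs minus BM pDCs, where the CD115-CDP difference itself was 0.04.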

How the results depend on the processing

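The counts of related genes called in LMPPs were 1 higher and 15 lower; they were 3 and 6 with median ratio scaling, 2 and 6 with quantile normalization, 0 and 2 with no filter, and 0 higher without the trend. Leaving out each library gave 0 to 2 higher and 4 (without control 2) to 25 (without HDAC3-deficient 1) lower. In CD115-CDPs, where both counts were 0, leaving out a library gave 0 to 10 higher and 0 to 19 lower, the highest without the first HDAC3-deficient library and 4 and 4 without the second; Rxrb there, at -0.16, was -1.09 without the first and 0.76 without the second. In BM pDCs, 11 higher and 24 lower became 7 higher with FPKM, 14 lower with DESeq2, and 5 to 15 higher and 9 to 27 lower without 1 library, lowest without control 2.

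Over all genes, LMPP calls of 480 higher and 2096 lower became 50 and 451 with no filter, 227 higher without the trend, and 172 to 951 higher and 995 to 2981 lower without 1 library. CD115-CDP calls reached 1640 and 3471 without the first HDAC3-deficient library, and 2 genes were called lower by quantile normalization. BM pDC calls ranged over 1440 to 3446 higher and 1310 to 3559 lower without 1 library. A replicate block, for numbers that nothing states to pair samples (correlation of deviations -0.10 in LMPPs, 0.24 in CD115-CDPs and -0.23 in BM pDCs), gave 1 higher and 2 lower related genes in CD115-CDPs, with 102 and 291 of all genes. Of the single-gene values under alternatives, 937 kept their call and direction, or moved by less than the spread between libraries, 92 lost the call, 31 gained one, 76 others moved and 1 reversed (Rxrb, above). Fits that leave out a library assume that the lone sample varies like the other group, and have fewer degrees of freedom. Genes of the set gained calls with median ratio scaling in LMPPs and, in each cell type, when an HDAC3-deficient library was left out. In the set, Angptl4 in BM pDCs lost its call with DESeq2 and without either control, Acadl there without the first control, Angptl4 in LMPPs without the second control and with no filter, and Plin2 in LMPPs with no filter, under both rescalings, without the trend, and without the first HDAC3-deficient or either control library.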

Other observations

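Ucp2, a mitochondrial carrier and PPAR target, was named after its values were seen, as one of the most abundant of the 96 related genes. It was at 373 and 401 FPKM in HDAC3-deficient LMPPs, against 463 and 592 in control LMPPs, and at 738 and 862 in HDAC3-deficient BM pDCs, against 922 and 800 in control BM pDCs. It was called in neither (adjusted p = 0.11 by limma and 0.84 by edgeR). Hadhb, the beta subunit that pairs with Hadha, was also picked afterwards. It was at 35.4 and 29.1 FPKM in HDAC3-deficient BM pDCs, against 43.2 and 44.2 in control BM pDCs, and fell by 0.30 on the log2 scale (edgeR adjusted p = 0.045), where Hadha differed by -0.03.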
